A study of Homo sapiens with 6 samples.

Results

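The 10 genes described here were 8 aldehyde dehydrogenase genes (ALDH1A1, ALDH1A2, ALDH1A3, ALDH1B1, ALDH2, ALDH3A1, ALDH3A2 and ALDH3B1) and the surface markers CD44 and PROM1, taken by symbol from the 58735 genes of the count table. The rule names symbols and no measured value, but the genes were chosen with earlier results of these data known. They were followed in 6 poly(A)-selected RNA libraries of human ovarian carcinoma cells, 3 from control cells and 3 from cells labelled as stably expressing BARD1, all marked 48 h. The BARD1 reading frame was delivered by lentivirus into OVCAR8 cells and is described in the labels as GFP-BARD1; the labels do not say what the control cells carry or whether the BARD1 cells are 1 clone or a pool, so BARD1 and any other difference between the 2 cell populations cannot be told apart. Titles name the cells OVCAR8ip1, whereas other fields name SKOV3ip1 and SKOV3ip1 tumors, so both the line and the kind of material are in conflict. Replicates are labelled biological, but separate cultures or transductions are not described, so p-values measure only the spread between these libraries, which may be technical.

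Aldehyde dehydrogenases oxidise reactive aldehydes to acids. The cytosolic ALDH1A enzymes turn retinal into retinoic acid, ALDH2 and ALDH1B1 work in mitochondria on acetaldehyde and lipid aldehydes, and ALDH3A2 clears fatty aldehydes at the endoplasmic reticulum. High aldehyde dehydrogenase activity, CD44 (a hyaluronan receptor) and CD133 (the product of PROM1) are widely used, alone or combined, to sort ovarian carcinoma cells with stem cell properties.

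Of the markers used for such sorting, CD44 was abundant and rose 1.25-fold in BARD1-expressing cells, whereas ALDH1A1 and PROM1 had almost no reads in either group. The aldehyde dehydrogenases that were expressed moved little and in both directions: ALDH2 rose, ALDH1B1 and ALDH3A2 fell, and ALDH1A2, ALDH1A3 and ALDH3B1 did not pass the test. Of the 10 genes, 7 had enough reads to be tested, 2 were called higher and 2 lower; over all 15400 tested genes 16.5% were called higher and 12.4% lower (29.0% in all), so the share of called genes among the 10 is read against a background in which such calls are common. A call is an adjusted p under 0.05 in edgeR's quasi-likelihood test. The median log2 fold change (BARD1-expressing over control) of the 7 genes was 0.32, beside -0.00 over all tested genes. The groups did not overlap in 5 of these 7 genes and in 40.9% of all tested genes, so such separation was common.

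Control libraries 1 to 3 held 23992482, 22767552 and 21819199 counted reads, and BARD1-expressing libraries 1 to 3 held 12744310, 24349158 and 15147685. BARD1 itself was higher in each BARD1-expressing library (44.3 to 49.0 CPM, counts per 1000000 reads after scaling by trimmed means, TMM) than in any control library (17.1 to 19.4 CPM). The share of reads from the mitochondrial genome was 1.90% to 2.40% in control and 0.965% to 1.31% in BARD1-expressing libraries, and its part in the results below was not tested. The 15 epithelial and serous markers summed to 3786 to 3851 CPM in control and 3750 to 4002 CPM in BARD1-expressing libraries, most of it from the keratin genes KRT7, KRT8 and KRT18, while KRT19, MUC16, EMX2 and MECOM had no reads. Of the 10 tested, KRT7, FOLR1 and CLDN3 were called higher, CLDN3 with 0 reads in control and 99 in BARD1-expressing libraries, and the serous lineage factor PAX8 was called lower (mean 143 and 91.4 CPM). The 10 leukocyte markers summed to 1.48 to 2.15 CPM in control and 1.26 to 1.99 CPM in BARD1-expressing libraries, with CD3E, MS4A1, NKG7 and TYROBP at 0. The 8 endothelial markers summed to 7.38 to 9.78 and 8.10 to 10.6 CPM, most of it ERG, with EMCN at 0 and the weakly expressed KDR called higher. The 8 fibroblast and pericyte markers summed to 1016 to 1083 and 841 to 889 CPM, nearly all of it COL1A1, which was called lower; the weakly expressed PDGFRB, LUM and ACTA2 were called higher, DCN was at 0 and COL1A2 had 1 read in all. The 6 mesothelial markers summed to 183 to 202 and 193 to 211 CPM, nearly all of it MSLN, with 2 of the 6 called higher and 1 lower. The weakly expressed DES (mean 0.277 CPM in control and 3.33 CPM in BARD1-expressing libraries) and WT1 (0.393 and 0.966 CPM, groups overlapping) were called higher. CALB2 was called lower (2.13 and 1.22 CPM). The part of these markers in the results was not tested.

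RefSeq lists a transcription start for 8 of the 10 genes (GRCh38.p14; ALDH2 and ALDH3A1 are not in the table), and 3 of these promoters are shown: that of ALDH1A1, which like PROM1 was almost silent, and those of both genes that fell, ALDH1B1 and ALDH3A2. Each runs from 250 bases before the listed start towards it, 5′ to 3′ on the gene's strand, and stops at that start or where GENCODE v29 first places an exon. Capitals mark the CCAAT box (CCAAT) and the GC box (GGGCGG), searched with the TATA box motif (TATAAA) on both strands.
ALDH1A1, chr9:72953057-72953303, minus strand: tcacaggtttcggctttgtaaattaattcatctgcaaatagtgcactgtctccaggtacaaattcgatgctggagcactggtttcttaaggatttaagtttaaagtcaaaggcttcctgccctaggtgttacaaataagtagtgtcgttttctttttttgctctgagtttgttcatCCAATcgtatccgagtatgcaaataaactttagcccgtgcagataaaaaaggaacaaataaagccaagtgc
ALDH1B1, chr9:38392452-38392663, plus strand: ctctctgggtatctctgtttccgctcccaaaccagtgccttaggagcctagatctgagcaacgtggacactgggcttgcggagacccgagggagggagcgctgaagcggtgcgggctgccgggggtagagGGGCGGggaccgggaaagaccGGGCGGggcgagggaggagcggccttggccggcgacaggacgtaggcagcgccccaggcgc
ALDH3A2, chr17:19647886-19648135, plus strand: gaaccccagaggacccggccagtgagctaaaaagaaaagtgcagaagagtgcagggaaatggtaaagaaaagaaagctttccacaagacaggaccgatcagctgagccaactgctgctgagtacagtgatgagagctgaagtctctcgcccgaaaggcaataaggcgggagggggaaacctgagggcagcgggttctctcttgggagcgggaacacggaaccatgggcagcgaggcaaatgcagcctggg
The ALDH1A1 stretch held 1 CCAAT motif, beginning 74 bases before the start, and no GC box. The ALDH1B1 stretch held 2 GC boxes, beginning 120 and 99 bases before the start. The ALDH3A2 stretch, before the first of 2 listed starts, held none of the 3 motifs. The window of the other ALDH3A2 start, mostly exon and not shown, held 1 CCAAT motif and 4 GC boxes and was 73.3% G and C. In the whole 300-base windows (250 before to 50 after the start) ALDH1A1 was 40.3% G and C, ALDH1B1 71.3% and ALDH3A2 55.0% at its first start, beside a median of 58.7% over 35114 promoters. Over the same whole windows ALDH1A1 held 1 CCAAT motif, ALDH1B1 1 CCAAT motif and 3 GC boxes, and the first start of ALDH3A2 none. Of all promoters 34.6% held CCAAT, 45.0% GGGCGG and 11.5% TATAAA in windows of that length, which is longer than the stretches printed. A match describes the letters of the window and shows no binding, and these data hold no measurement of it.

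CD44 (ENSG00000026508, chr11:35138870-35232402, plus strand) was the highest of the 10 genes. Its level was 397, 409 and 438 CPM in control libraries 1 to 3 and 524, 515 and 517 CPM in BARD1-expressing libraries 1 to 3. Each BARD1-expressing library lay above each control library, and the BARD1-expressing libraries were closer together (519 ± 4.50 CPM, SD, n = 3) than the controls (414 ± 20.9 CPM, SD, n = 3). The log2 fold change was 0.32 ± 0.049 (SE; 95% interval 0.22 to 0.43; edgeR adjusted p = 1.54e-05). With the library labels permuted in every way, the exact p (both sides) was 0.1, the lowest value this design can reach. Per kilobase of exon, CD44 stood above 92.8% of tested genes in control and 94.4% in BARD1-expressing cells. GENCODE v29 lists 39 transcripts for CD44, and the gene count adds up standard and variant forms. In these bulk libraries a change in RNA per cell and a change in the number of cells with the RNA cannot be told apart, for CD44 or any other gene.

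PROM1 (ENSG00000007062, chr4:15963076-16084378, minus strand), the gene of the pentaspan membrane protein CD133, had 0 reads in each control library and 2, 0 and 0 reads in BARD1-expressing libraries 1 to 3. Pooled over the 6 libraries that is 0.0166 CPM, with an exact 95% Poisson interval of 0.00201 to 0.0598 CPM. ALDH1A1 (ENSG00000165092, chr9:72900662-73080442, minus strand), the isozyme most often tied to stem cell sorting, had 1 read in BARD1-expressing library 2 and none in the other 5, which is 0.00828 CPM (exact 95% Poisson interval 0.000210 to 0.0461 CPM). ALDH3A1 (ENSG00000108602, chr17:19737984-19748943, minus strand), a detoxifying enzyme of cornea and stomach, had no read in any library; 3 counts over the 6 libraries would be 0.0248 CPM, and the upper end of the exact 95% Poisson interval was 0.0305 CPM. The intervals and this limit hold for counting error alone, because PCR copies were not marked. No difference between the groups was detectable for these 3 genes at this depth, and none was tested.

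**Figure D1:**
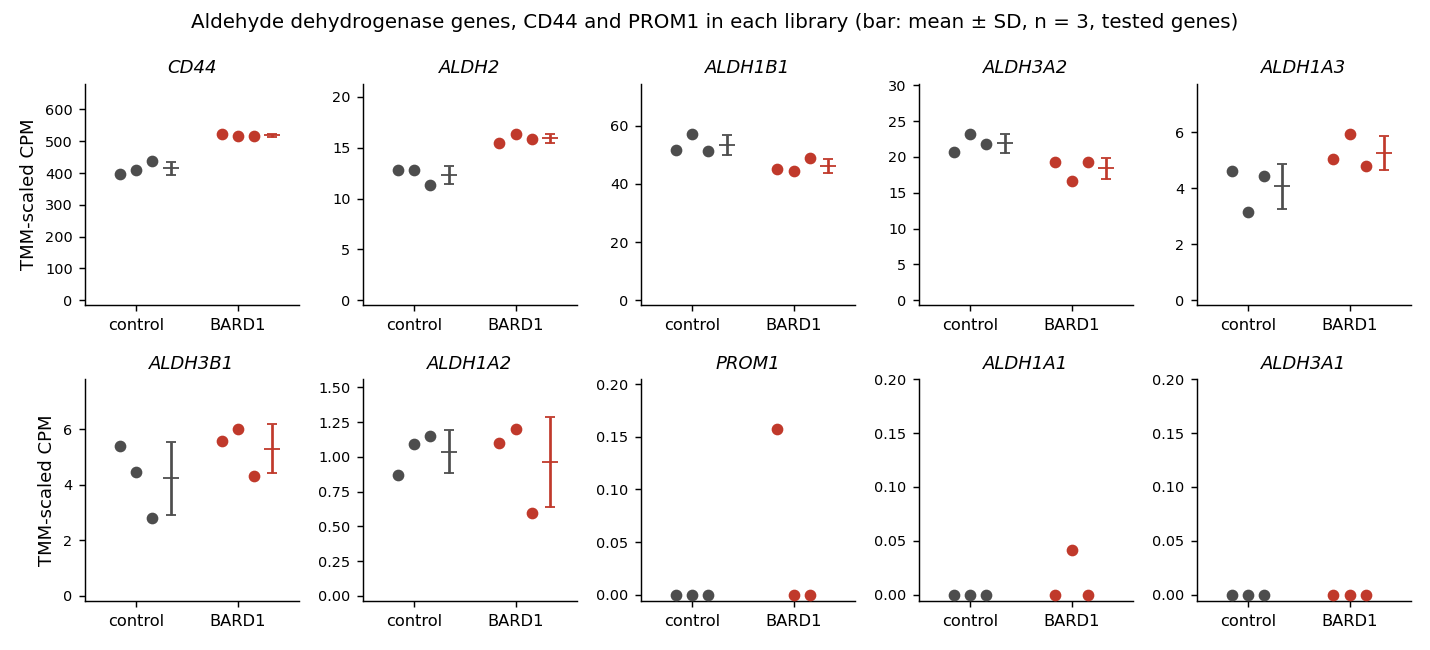
TMM-scaled CPM (vertical axes, a scale per gene, each showing 0) of the 10 genes in each library, control in grey and BARD1-expressing in red, with mean ± SD of 3 libraries for the 7 tested genes. CD44, ALDH2, ALDH1B1, ALDH3A2 and ALDH1A3 show no overlap between the groups, as do 40.9% of all tested genes. PROM1, ALDH1A1 and ALDH3A1 lie at or near 0.

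The other ALDH1A enzymes make retinoic acid as ALDH1A1 does, and both were expressed at low levels. ALDH1A3 (ENSG00000184254, chr15:100877714-100916626, plus strand) had 4.62, 3.15 and 4.43 CPM in control libraries 1 to 3 and 5.03, 5.95 and 4.78 CPM in BARD1-expressing libraries 1 to 3. The groups did not overlap, as at 40.9% of all tested genes, and the highest control lay close to the lowest BARD1-expressing library. The log2 fold change was 0.38 ± 0.176 (SE; 95% interval 0.02 to 0.75), and it did not pass after adjustment (edgeR adjusted p = 0.110). The antisense gene AC015712.2 covers 27.5% of the exon bases of ALDH1A3 and had 66 reads in control and 38 in BARD1-expressing libraries, against 280 and 280 for ALDH1A3. The labels leave unclear whether strand was kept, and without strand the reads of this pair cannot be told apart.

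ALDH1A2 (ENSG00000128918, chr15:57953424-58497866, minus strand) had 21, 25 and 25 reads in control libraries and 14, 29 and 9 in BARD1-expressing libraries, with means of 1.04 and 0.965 CPM. The groups overlapped, and the log2 fold change was -0.07 with a 95% interval of -0.79 to 0.65 (edgeR adjusted p = 0.907). Its sign turned without control 3 (0.01) or BARD1-expressing 3 (0.16). Summed over ALDH1A1, ALDH1A2 and ALDH1A3, the level was 0.901, 0.673 and 0.901 CPM per kilobase of exon in control libraries and 1.000, 1.18 and 0.897 in BARD1-expressing libraries, which overlapped.

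The mitochondrial enzymes moved in opposite directions. ALDH2 (ENSG00000111275, chr12:111766887-111817529, plus strand), the main acetaldehyde dehydrogenase, rose from 12.8, 12.8 and 11.3 CPM in control libraries to 15.5, 16.4 and 15.9 CPM in BARD1-expressing libraries, with no overlap. The log2 fold change was 0.37 ± 0.101 (SE; edgeR adjusted p = 0.00709), and the call held with each library left out. ALDH1B1 (ENSG00000137124, chr9:38392664-38398661, plus strand), a related enzyme that also takes retinal, fell from 51.5, 57.2 and 51.3 CPM to 45.2, 44.3 and 48.8 CPM, again with no overlap. Its log2 fold change was -0.21 ± 0.070 (SE; edgeR adjusted p = 0.0254), and the call was lost without control 2 (edgeR adjusted p = 0.168) or BARD1-expressing 2 (edgeR adjusted p = 0.0866). Per kilobase of exon ALDH1B1 stood 12.4-, 13.7- and 13.9-fold above ALDH2 in control libraries and 8.99-, 8.32- and 9.49-fold above it in BARD1-expressing libraries. This ratio within each library does not depend on the scaling, but its size depends on the exon lengths used. In CPM the control means were 53.3 for ALDH1B1 and 12.3 for ALDH2. Both genes were already separated between the groups, in opposite directions. The lack of overlap in the ratio and its exact permutation p (both sides) of 0.1, the floor of the design, follow from that. They are no further test.

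Of the ALDH3 enzymes, which act on medium and long chain aldehydes, ALDH3A2 was the highest. ALDH3A2 (ENSG00000072210, chr17:19648136-19677598, plus strand), mutated in Sjögren-Larsson syndrome, fell from 20.6, 23.3 and 21.8 CPM in control libraries to 19.3, 16.7 and 19.2 CPM in BARD1-expressing libraries. The groups did not overlap, but the gap between the lowest control and the highest BARD1-expressing library was small. The log2 fold change was -0.26 ± 0.093 (SE; edgeR adjusted p = 0.0389). This call was lost on leaving out control 2 (edgeR adjusted p = 0.165), control 3 (0.0684), BARD1-expressing 2 (0.183) or the third BARD1-expressing library (0.0536). DESeq2 did not make the call either (adjusted p = 0.0637). ALDH3B1 (ENSG00000006534, chr11:68008578-68029282, plus strand), which acts on lipid aldehydes at membranes, had 5.40, 4.47 and 2.81 CPM in control libraries and 5.58, 5.99 and 4.31 CPM in BARD1-expressing libraries. The groups overlapped, and the log2 fold change of 0.33 had a 95% interval of -0.09 to 0.75 (edgeR adjusted p = 0.246).

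Levels of different genes were compared as CPM per kilobase of exon. In control cells the order was CD44 (41.4 ± 2.09, SD, n = 3), ALDH1B1 (16.9 ± 1.07), ALDH3A2 (3.39 ± 0.204), ALDH2 (1.27 ± 0.087), ALDH1A3 (0.705 ± 0.138), ALDH3B1 (0.638 ± 0.198) and ALDH1A2 (0.120 ± 0.018). ALDH1A3 and ALDH3B1 overlapped in this order, and the other neighbours did not. The order in BARD1-expressing cells was the same, with ALDH1A3 (0.910 ± 0.106) and ALDH3B1 (0.799 ± 0.132) again overlapping.

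Across all 19 aldehyde dehydrogenase genes the total was 97.1 ± 3.40 CPM per kilobase in control and 104 ± 2.89 in BARD1-expressing cells (SD, n = 3 each). ALDH18A1, which makes the proline precursor pyrroline carboxylate, held 27.9% of that total in control and 24.9% in BARD1-expressing cells, and ALDH9A1, which acts on aminoaldehydes, 22.7% and 23.6%. ALDH1B1 came next with 17.4% and 14.1%. In CPM, without division by length, ALDH7A1 (control mean 62.6) lay above ALDH1B1 (53.3). The 3 ALDH1A genes together held 0.853% and 0.994%. The RNA of this family therefore came mostly from enzymes outside the ALDH1A branch.

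**Figure D2:**
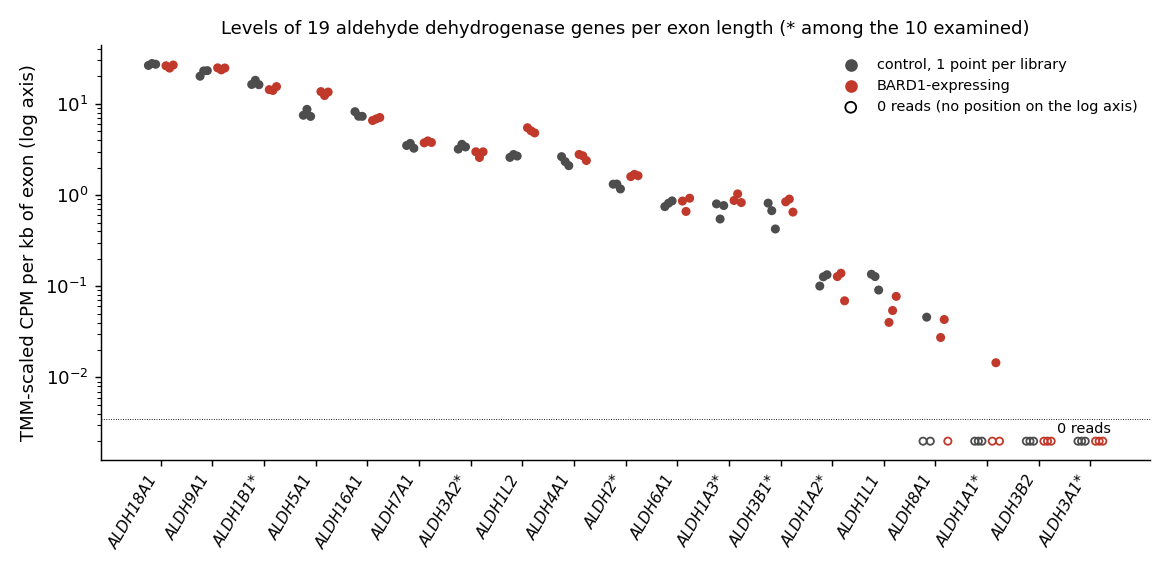
Level of the 19 aldehyde dehydrogenase genes in CPM per kilobase of exon (log axis), 1 point per library, control in grey and BARD1-expressing in red, ordered by the control mean; open points under the dotted line had 0 reads. ALDH18A1, ALDH9A1 and ALDH1B1 lead, and ALDH1A1, ALDH3A1 and ALDH3B2 sit at the bottom.

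Of the 11 aldehyde dehydrogenase genes outside the 10 examined, 9 were tested. Among these, 2 were called higher and 1 lower, beside 16.5% and 12.4% of all tested genes. Their median log2 fold change was 0.13 (-0.00 over all tested genes). ALDH1L2, the mitochondrial formyltetrahydrofolate dehydrogenase of folate metabolism, rose from 22.0, 23.7 and 22.8 CPM in control libraries to 46.6, 43.0 and 40.9 CPM in BARD1-expressing libraries. Its log2 fold change was 0.93 ± 0.077 (SE; edgeR adjusted p = 1.47e-09). ALDH5A1, the succinic semialdehyde dehydrogenase of GABA breakdown, rose from 41.5, 48.1 and 40.3 CPM to 75.3, 68.2 and 74.5 CPM (log2 fold change 0.74 ± 0.073, SE; edgeR adjusted p = 2.21e-08). Both were well separated between the groups, and both changed more than any of the 7 tested genes of the main set.

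ALDH1L1, the cytosolic counterpart of ALDH1L2, fell from 1.86, 1.75 and 1.25 CPM to 0.551, 0.743 and 1.06 CPM (log2 fold change -1.04 ± 0.331, SE; edgeR adjusted p = 0.0199). Leaving out control 1 (edgeR adjusted p = 0.0833) or control 2 (0.0681) ended that call, as did leaving out BARD1-expressing 1 (0.0566) or the second BARD1-expressing library (0.0704). ALDH9A1 (log2 fold change 0.14), ALDH7A1 (0.13), ALDH4A1 (0.16), ALDH16A1 (-0.16), ALDH18A1 (-0.07) and ALDH6A1 (-0.01) were not called. ALDH8A1 had at most 3 reads in a library and ALDH3B2 had none.

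**Figure D3:**
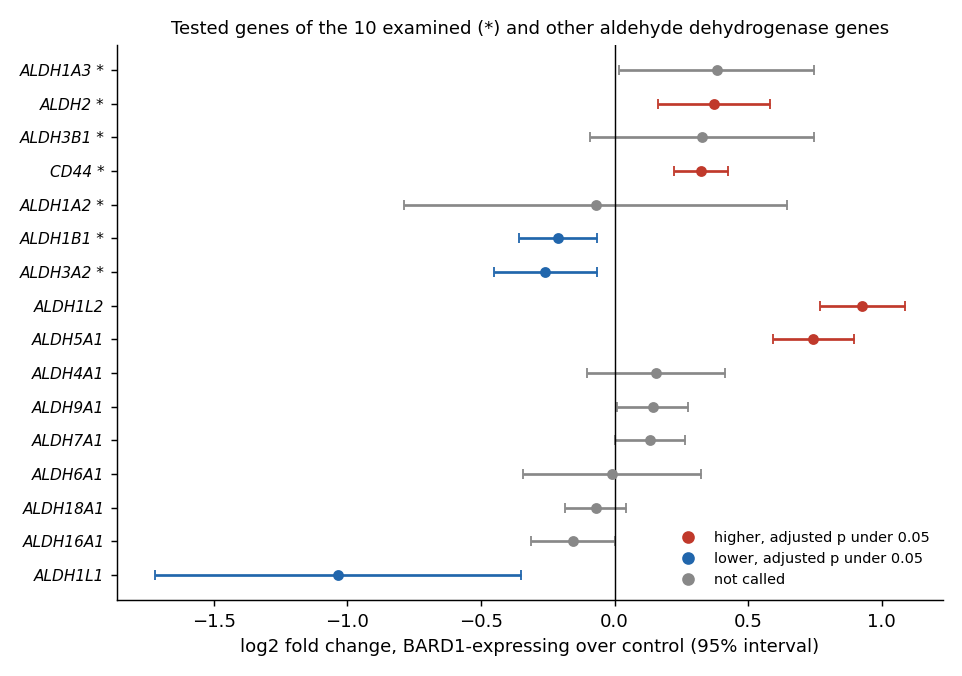
Log2 fold change, BARD1-expressing over control, with its 95% interval (horizontal axis) for the 7 tested genes of the 10 examined (asterisk) and 9 further aldehyde dehydrogenase genes. Red and blue mark genes called higher and lower, grey those not called; ALDH1L2 at 0.93 and ALDH1L1 at -1.04 lie farthest from 0.

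The retinoid pathway takes up retinol, oxidises it through retinal to retinoic acid, and reads that acid through nuclear receptors. Of 28 such genes 20 were tested, and 4 were called higher and 1 lower, beside 16.5% and 12.4% of all tested genes. Their median log2 fold change was 0.03. None of the 5 tested receptor genes RARA, RARB, RARG, RXRA and RXRB was called. TGM2, a transglutaminase gene of this list, rose from 87.2, 93.9 and 89.4 CPM to 154, 164 and 155 CPM (log2 fold change 0.81 ± 0.054, SE, edgeR adjusted p = 3.85e-11). CRABP2, which carries retinoic acid to its receptors, fell from 10.9, 11.3 and 12.3 CPM to 7.24, 7.19 and 8.63 CPM (log2 fold change -0.58 ± 0.122, SE; edgeR adjusted p = 0.000705). Both were separated without overlap.

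Weakly expressed retinoid genes were also called higher. RARRES2, which encodes chemerin, went from a mean of 1.13 to 2.37 CPM. CYP26C1, a retinoic acid hydroxylase, went from 0.717 to 1.51 CPM. The call of RARRES2 was lost without BARD1-expressing 3 (edgeR adjusted p = 0.0600), and that of CYP26C1 without control 2 (0.0762), control 3 (0.0830) or BARD1-expressing 2 (0.0877). The number of genes called lower in this list ranged from 1 to 3 with 1 library left out, and it was 3 without control 1, BARD1-expressing 1 or BARD1-expressing 2 and 2 without control 3.

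CD44 binds hyaluronan, is tied to actin by ezrin, radixin and moesin, and is cut at the surface by membrane proteases. Of 22 genes for hyaluronan handling and CD44 partners 18 were tested. Among these, 10 were called higher and 3 lower, beside 16.5% and 12.4% of all tested genes. Their median log2 fold change was 0.24 (-0.00 over all tested genes). CEMIP2, a surface protein linked to hyaluronan breakdown, rose from 43.3, 45.0 and 43.4 CPM to 74.1, 69.2 and 72.3 CPM (log2 fold change 0.71 ± 0.064, SE; edgeR adjusted p = 5.10e-09). EZR, the ezrin gene, rose from 1247, 1310 and 1271 CPM to 1518, 1518 and 1547 CPM (log2 fold change 0.26 ± 0.045, SE; edgeR adjusted p = 8.64e-05). RDX, the radixin gene, was also called higher (log2 fold change 0.24, edgeR adjusted p = 0.00660). Its groups overlapped, with 297, 303 and 330 CPM in control and 398, 327 and 377 CPM in BARD1-expressing libraries. MSN, the moesin gene, went the other way, from 594, 631 and 646 CPM to 567, 573 and 568 CPM (log2 fold change -0.13, edgeR adjusted p = 0.0394). The call of MSN was lost without control 2 (edgeR adjusted p = 0.144), control 3 (0.158) or BARD1-expressing 3 (0.146).

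MMP14, a membrane protease that can cut CD44, rose with a log2 fold change of 0.32 ± 0.061 (SE; edgeR adjusted p = 0.000281), and HMMR, another hyaluronan receptor that also acts on the mitotic spindle, with 0.25 ± 0.061 (edgeR adjusted p = 0.00249). HMMR lies at chr5:163460203-163491945. The median log2 fold change of the 726 tested genes of chromosome 5 was 0.07, and the part of this position in the HMMR result was not tested. ESRP2, a splicing factor known to favour variant exons of CD44, rose from 7.51, 6.75 and 7.29 CPM to 10.5, 11.1 and 11.3 CPM (log2 fold change 0.62 ± 0.119, SE; edgeR adjusted p = 0.000311). The gene counts give no measure of which CD44 exons were used. SRGN, a proteoglycan that CD44 binds, fell from 41.9, 49.2 and 53.0 CPM to 20.8, 21.3 and 21.6 CPM (log2 fold change -1.17 ± 0.086, SE; edgeR adjusted p = 1.63e-10). HYAL3, of the hyaluronidase family, fell by 0.49 on the log2 scale (edgeR adjusted p = 0.0322). HYAL2, of the same family, was more abundant and was called higher (log2 fold change 0.26, edgeR adjusted p = 0.00706). Its means were 43.0 CPM in control and 51.5 CPM in BARD1-expressing libraries, beside 4.83 and 3.39 CPM for HYAL3. The weakly expressed HYAL1 was not called.

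The call of HYAL3 was lost in 5 of the 6 fits that left out 1 library (edgeR adjusted p of 0.0503 without control 1, 0.0880 without control 2, 0.0690 without control 3, 0.0767 without BARD1-expressing 1 and 0.108 without BARD1-expressing 3). For the list of CD44 partners, 10 genes called higher became 6 without BARD1-expressing 3, and 3 called lower became 1 without control 2, control 3 or BARD1-expressing 3. The hyaluronan synthase genes HAS1 and HAS2 had too few reads to be tested. HAS3 was tested, with means of 4.39 CPM in control and 3.32 CPM in BARD1-expressing libraries. Its groups did not overlap, as at 40.9% of all tested genes, and it was not called (log2 fold change -0.39, edgeR adjusted p = 0.107).

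**Figure D4:**
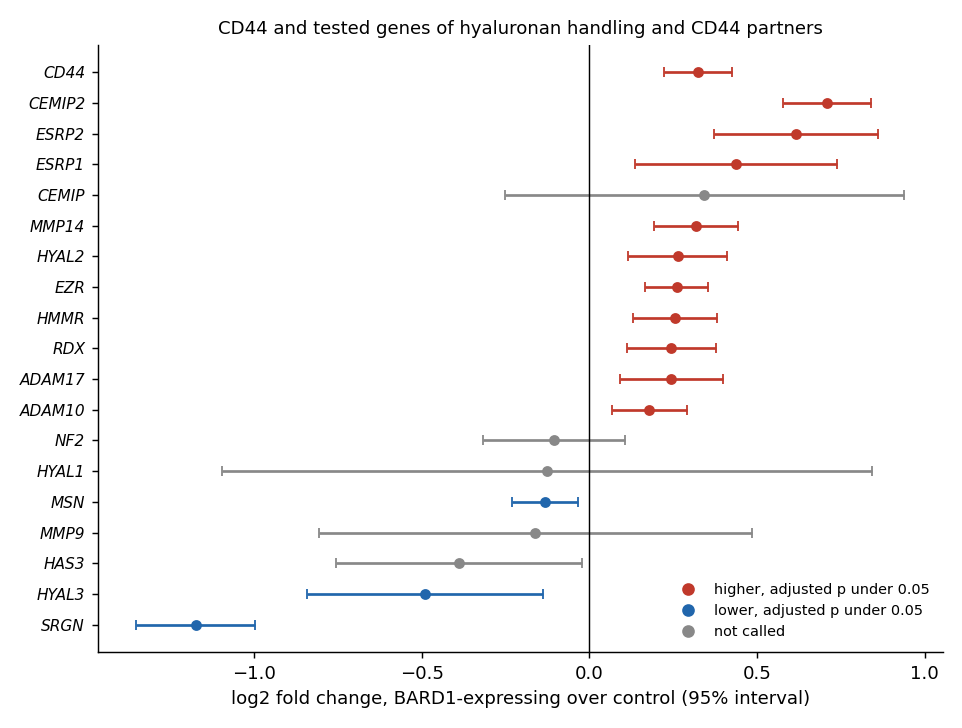
Log2 fold change, BARD1-expressing over control, with its 95% interval (horizontal axis) for CD44 and the 18 tested genes of hyaluronan handling and CD44 partners. Red and blue mark genes called higher and lower; CEMIP2 at 0.71 is the highest and SRGN at -1.17 the lowest.

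Among 23 other genes used as stem cell markers or regulators 16 were tested. Of these, 3 were called higher and 2 lower, beside 16.5% and 12.4% of all tested genes. Their median log2 fold change was 0.07. The pluripotency genes NANOG and LIN28A and the intestinal stem cell marker LGR5 had almost no reads or none. Other pluripotency genes of the list did have reads. KLF4 (means 7.24 CPM in control and 8.07 CPM in BARD1-expressing libraries) and POU5F1 (0.691 and 0.672 CPM) were tested and not called. SOX2 had 11 reads in control and 23 in BARD1-expressing libraries and was not tested. ENG, which encodes the TGF-beta coreceptor endoglin, rose from 4.54, 6.18 and 6.27 CPM to 19.3, 20.6 and 23.5 CPM (log2 fold change 1.90 ± 0.126, SE; edgeR adjusted p = 3.01e-11). ENG is also used as an endothelial marker. Of the endothelial list, KDR was called higher as well (mean 0.265 CPM in control and 0.835 CPM in BARD1-expressing libraries), ERG had means of 8.09 and 7.60 CPM, PECAM1 0.145 and 0.330 CPM and CDH5 0.014 and 0.036 CPM, and their part in the ENG result was not tested. BMI1, a Polycomb subunit, fell from 26.2, 25.2 and 25.5 CPM to 22.2, 17.1 and 18.7 CPM (log2 fold change -0.42 ± 0.094, SE; edgeR adjusted p = 0.00137).

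MYC fell by 0.19 on the log2 scale (edgeR adjusted p = 0.00502), and its call was lost without BARD1-expressing 3 (edgeR adjusted p = 0.0511). The adhesion molecule gene ALCAM rose by 0.22 (edgeR adjusted p = 0.00868), a call lost without control 1 (0.0589) or control 2 (0.0569). MSI2, an RNA-binding protein of stem cells, passed with 0.20 (edgeR adjusted p = 0.0196) while its groups overlapped, and its call was lost without control 1 (0.109), control 2 (0.0873) or BARD1-expressing 3 (0.149). In this list 3 genes called higher became 1 without control 1, and 2 called lower became 1 without BARD1-expressing 3. CD24 and EPCAM, surface markers often paired with CD44, had log2 fold changes of -0.06 and -0.02 and were not called.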

How the data were processed

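Raw read counts per gene for 58735 genes were deposited, 1 column per library, and each column was matched to its sample through the description label. The tools DESeq2 1.20.0, featureCounts 1.5.0-p3 and HISAT2 2.0.5 and the build GRCh38 (hg38) are named, per the submitters' processing notes, without role or options. Positions matched GENCODE v29 for 99.8% of genes and all 10 examined.

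In R 4.3.3 with edgeR 4.0.16, filterByExpr left 15400 genes, scaled by TMM and tested by the robust quasi-likelihood F test on group alone (4 residual degrees of freedom), Benjamini-Hochberg adjusted over all. SE and 95% intervals come from that fit; CPM per kilobase uses the deposited gene length. The exact permutation test used log2(CPM + 0.5). The pipeline was tested on simulated counts. No 2 libraries of a group were identical (chi-square per degree of freedom 3.41 to 8.11).

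Named genes are the 10, every other aldehyde dehydrogenase and, per further list, up to 5 called genes with the smallest p in each direction; a gene outside this rule was chosen after its values were seen, and 1 gene within it is not reported here. The genes and lists were chosen with earlier results of these data known. Alternatives were other scalings, DESeq2 1.42.0, no robust fit, no filter, a replicate block and each library left out.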

Additional observations from a re-analysis of the deposited data

How the results depend on the processing

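The 2 genes called higher (CD44, ALDH2) were 2 in each of the 12 alternatives. The 2 called lower became 1 with DESeq2 and 1 with the replicate block, and ranged from 0 to 2 with 1 library left out. ALDH1B1 had a log2 fold change of -0.26 to -0.16 with 1 library left out and lost its call in 2 of those 6 fits. ALDH3A2 had -0.31 to -0.19 with 1 library left out, -0.26 with DESeq2 (adjusted p = 0.0637) and -0.26 with the replicate block (edgeR adjusted p = 0.0608), and lost its call in 6 of 12 alternatives. ALDH1A2 (-0.31 to 0.16) and ALDH6A1 (-0.12 to 0.14), neither called, changed sign with 1 library left out: ALDH1A2 to 0.01 and 0.16, ALDH6A1 to 0.04 without control 3 and 0.14 without BARD1-expressing 2. The cause was not tested. CD44 (0.29 to 0.36) and ALDH2 (0.32 to 0.40) were called higher in all 12. ALDH1A3 (0.23 to 0.48) and ALDH3B1 (0.11 to 0.54) kept their direction and were called in none. Library numbers do not pair the groups: deviations of libraries with the same number correlated at -0.34, -0.03 and -0.05. Those with different numbers correlated at -0.31 to 0.33. The highest values were 0.33 (control 1 with BARD1-expressing 2) and 0.32 (control 3 with BARD1-expressing 1), and their cause was not tested. The replicate block gave 2296 higher and 1694 lower calls against 2545 and 1915 without it. Alternatives for the retinoid, oxidoreductase, CD44 partner and stem cell lists, and for each named gene outside the 10, were added after seeing the data. The genes with 2 reads or fewer in all could be neither tested nor compared at this depth.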

Other observations

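Besides the aldehyde dehydrogenases, 18 other genes of aldehyde and alcohol metabolism were read from the same fit. Of these 11 were tested, and 4 were called higher and 1 lower, beside 16.5% and 12.4% of all tested genes. Their median log2 fold change was 0.17. AOX1, the molybdenum enzyme aldehyde oxidase, which also turns aldehydes into acids, fell from 37.3, 41.3 and 38.9 CPM in control libraries to 10.9, 10.2 and 11.2 CPM in BARD1-expressing libraries, with no overlap. Its log2 fold change was -1.87 ± 0.088 (SE; edgeR adjusted p = 1.11e-13), and it lay between -1.91 and -1.82 in the 12 alternatives. Per kilobase of exon AOX1 stood at 7.05 CPM in control, above ALDH2 at 1.27, and at 1.94 CPM in BARD1-expressing cells, where ALDH2 stood at 1.64. Without division by length the control means were 39.2 CPM for AOX1 and 12.3 CPM for ALDH2. In BARD1-expressing cells they were 10.8 and 15.9 CPM, so the order there depends on the lengths used.

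The genes called higher were PTGR1, which reduces lipid-derived alkenals (from 31.1, 32.9 and 28.7 to 36.8, 40.3 and 40.3 CPM), and the weakly expressed reductases AKR1C1 (mean 0.763 to 2.05 CPM), AKR1C2 (0.211 to 1.31 CPM) and CBR3 (0.743 to 1.63 CPM). AKR1C1 and AKR1C2 are near-identical copies, so their counts are uncertain. The call of CBR3 was lost without BARD1-expressing 2 (edgeR adjusted p = 0.0983). Genes called lower in this list numbered 1, and 2 without BARD1-expressing 1. ADH5, which clears formaldehyde bound to glutathione, was not called (log2 fold change -0.11), nor was AKR1B1, the aldose reductase gene (0.00).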
